A study of Mus musculus with 6 samples.

Results

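The jejunum of 3 irradiated mice that had received only the vehicle was described by the strength and the spread of its transcript signals. The mice were male C57BL/6J animals given the vehicle by gavage, exposed 0.5 h later to 9 Gy of radiation, and sampled 6 h after exposure. The series holds 6 arrays in all, and the other 3, from irradiated mice given the compound VND3207, enter no value here. Every mouse was irradiated, so no unirradiated tissue was analysed here and nothing below measures an effect of radiation. RNA from each mouse was read on 1 Agilent array with a single Cy3 channel and probes of 60 bases, and the 3 arrays lay on the same slide and were scanned together. The spread between them therefore holds mouse, dissection, labelling and array error together, and it holds no difference between slides.

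Signals are given on the log2 scale relative to the 75th percentile of each array, so that 0 is a signal at that percentile and a difference of 1 is 2-fold. A gene was kept when a probe carrying its symbol was well above background on all 3 arrays, and its brightest such probe stood for it. Of 21545 gene symbols, 16360 (75.9%) were kept, with means from -5.29 to 9.62. The rank or percentile of a gene is its place among these 16360 means, where a percentile of 50 is the middle. Probes bind their targets with different strength, so these are ranks of signal and not of the number of molecules. In whole tissue, fewer cells of a type and less RNA per cell cannot be told apart.

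On the 3 arrays 66.7% to 70% of non-control spots were well above background, and 0 spots were saturated. Signals of any pair of arrays correlated across genes at a Pearson r from 0.991 to 0.993, which describes the genes within these arrays and is no test of the mice. Of the 100 brightest genes on each array, 89 were in that group on every array and 113 on at least 1.

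The jejunal mucosa is a sheet of absorptive enterocytes folded into villi and renewed from stem cells at the base of the crypts. Goblet cells secrete mucus, enteroendocrine cells release peptide hormones, and Paneth cells at the crypt base store antimicrobial peptides, above all alpha-defensins. Beneath the epithelium lie immune cells, vessels, fibroblasts, nerves and smooth muscle, all of which enter an RNA extract of the whole wall. Crypt cells are among the most radiation-sensitive cells of the body, and the p53 pathway is a main route of their response.

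Epithelial transcripts took the upper ranks. Of the 184 members of 11 epithelial lists, 174 were kept, with a median percentile of 85.5. Means above 0 were found in 145 of these 174 and in 52.3% of all kept genes. Of the 174, 74 (42.5%) were at or above a percentile of 90, where by definition 10% of all kept genes lie. Of 122 members of the immune lists 96 were kept, with a median percentile of 41.5 and 10 (10.4%) at or above 90. Of 118 members of the stromal lists 106 were kept, with a median percentile of 47.6 and 9 (8.49%) at or above 90. A gene in more than 1 list of a compartment is counted once in its total, and a gene in lists of different compartments is counted in each. These counts describe lists chosen with earlier results of the same arrays known, and no test was made of them.

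**Figure D1:**
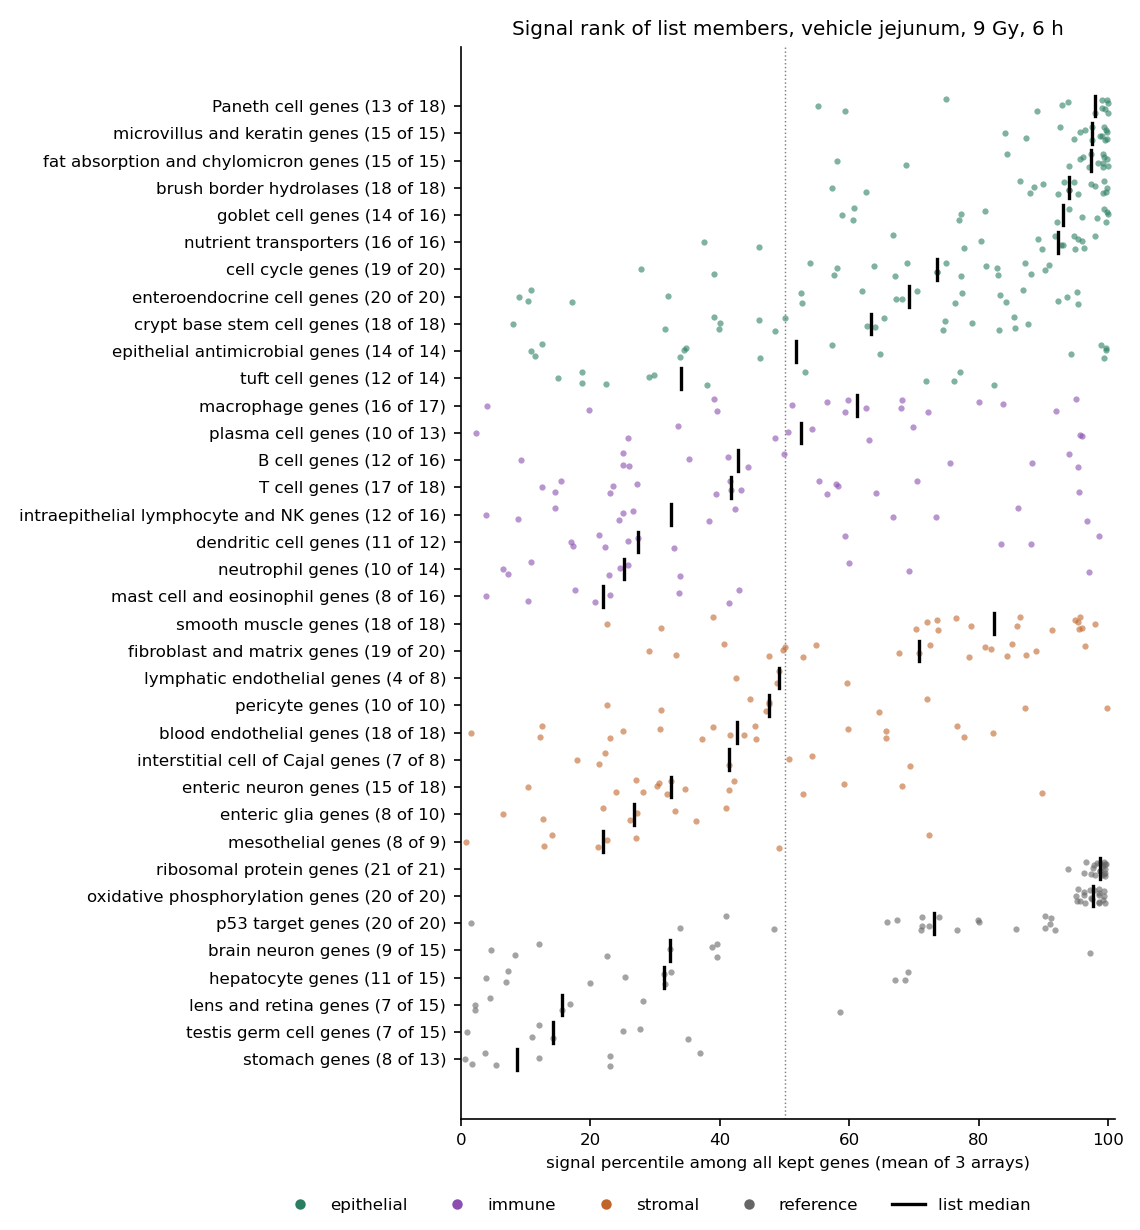
Each point is a kept member of a gene list, placed by its signal percentile among the 16360 kept genes (mean of 3 arrays), with a black bar at the list median and the number kept of all members beside the name. Lists of enterocyte, Paneth and goblet cell genes crowd the right edge, with medians from 92.2 to 98, stomach, testis and lens lists lie at the left, with medians from 8.7 to 15.6, and hepatocyte and brain neuron lists lie to their right at 31.4 and 32.3.

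The 15 brightest genes were led by defensins. Defa23 stood first, at 9.41, 9.86 and 9.59 on replicates 1, 2 and 3 (9.62 ± 0.23, SD, n = 3). Defa3 was second at 9.44 ± 0.19 (n = 3), and Gm14851, named for a defensin-related locus, ranked 3 at 9.38 ± 0.19 (n = 3). These 3 held the first 3 ranks on each array. Gm15292 and Gm14850, from the same gene family, ranked 9 and 11. The others among the 15 were Crip1, a LIM-domain protein abundant in intestine, F10, a clotting factor, the cytochrome oxidase subunit Cox6a1, Kctd14, the fatty acid carrier Fabp2, Rn18s, the 18S ribosomal RNA, Actb, the secretory granule lectin Zg16, Elk1, a transcription factor, and the malate dehydrogenase Mdh2. Their ranges over the arrays ran from 0.06 for Zg16 to 0.49 for Rn18s. The rank of F10 rests on the brightest of 2 kept probes, that of Kctd14 on the brightest of 3 and that of Elk1 on 1. Probes were not aligned to transcripts, so whether these bright probes also bind other transcripts was not checked.

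The probes named for defensins are near copies of one another, and their letters show how little separates them. Of 29 kept probes named for alpha-defensins or their listed relatives, 23 had at least 80% identity over at least 40 aligned bases with another of the 29. The first set below lies in the part of the message that encodes the prosegment of the peptide, and the second lies in the mature peptide. Each probe is given 5′ to 3′ as the files list it, with mm9 positions on the plus strand, and capitals mark the bases that differ from the first probe of its set.

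Defa3, chr8:22427233-22427292: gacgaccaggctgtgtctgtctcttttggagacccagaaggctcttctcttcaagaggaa
Gm14850, chr8:22675997-22676056: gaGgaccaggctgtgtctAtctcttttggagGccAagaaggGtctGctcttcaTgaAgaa
Gm15308, chr8:22639658-22639717: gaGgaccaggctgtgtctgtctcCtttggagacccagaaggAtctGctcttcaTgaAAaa

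Gm14850 differed from Defa3 at 8 of 60 bases and Gm15308 at 7 of 60. All 3 were bright and steady. The Defa3 probe read 9.25, 9.63 and 9.46 on replicates 1 to 3, the Gm14850 probe 9.04, 9.14 and 9.15, and the Gm15308 probe 9.05, 9.09 and 8.93. A transcript of one of these genes could bind the probes of the others, so their signals were not taken as levels of single genes.

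Defa21, chr8:22166019-22166078: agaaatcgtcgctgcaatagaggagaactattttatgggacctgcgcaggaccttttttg
Gm15308, second probe, chr8:22640300-22640359: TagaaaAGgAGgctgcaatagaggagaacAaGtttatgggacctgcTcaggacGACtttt

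This pair, aligned over 59 bases with 10 differences, behaved otherwise. The Defa21 probe read 7.98, 5.91 and 7.23, a range of 2.07, and the second Gm15308 probe read 8.58, 7.19 and 8.02, a range of 1.39. Both were highest on replicate 1 and lowest on replicate 2. The same order held widely among the less bright defensin probes. All 12 probes with a mean of 8.5 or lower were lowest on replicate 2, where 31.1% of all kept genes were lowest. The split by brightness was chosen after the values were seen. Many of the probes are near copies of one another, so they are not separate observations. The count lowest on replicate 2 was 12 of 12 also after quantile normalization, cyclic loess and normexp correction and in the deposited value table. Of the 17 brighter probes, 14 were highest on replicate 2, but 1 of 17 was so after quantile normalization and 3 of 17 in the deposited table, so the direction of the brightest probes depended on the scaling.

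**Figure D2:**
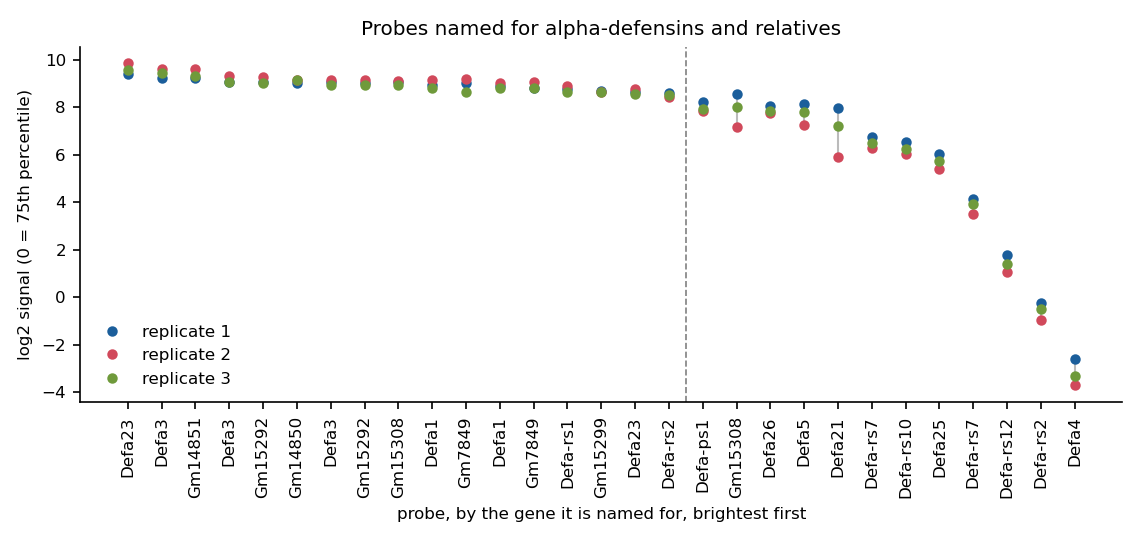
The log2 signal of 29 probes named for alpha-defensins and relatives (vertical axis, 0 is the array's 75th percentile) is shown on each of the 3 arrays, brightest probe first, with a dashed line at a mean of 8.5. To the right of the line replicate 2 is the lowest of the 3 arrays in all 12 probes, with the widest gap at Defa21, from 5.91 to 7.98.

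The Paneth cell list, which includes some of these defensins, spanned the upper part of the scale. Of 18 listed genes, 13 were kept and 5 (Defa17, Defa20, Defa22, Defa24 and Mptx2) had no symbol of that name used here. Itln1, a lectin that binds microbial sugars, had a mean of 8.78 ± 0.10 (n = 3). Lyz1, the lysozyme of Paneth granules, read 8.32, 8.28 and 8.32. Ang4, a microbicidal ribonuclease, read 5.87, 4.58 and 5.43, and Mmp7, the protease that activates prodefensins, read 4.83, 3.83 and 4.15. Lyz1 thus hardly differed between the mice, and Ang4 differed by 1.28 with replicate 2 lowest. In all, 11 of the 13 were highest on replicate 1 and 11 were lowest on replicate 2, where 35.3% and 31.1% of all kept genes had their highest and lowest values. Defa3, Defa5, Defa21, Defa23 and Defa26 are among the 13, so these counts partly repeat those of the defensin probes above. The 11 lowest on replicate 2 held under each of the 5 other scalings or signals. The count highest on replicate 1 stayed 11 after quantile normalization and normexp correction. It was 8 after median scaling, 9 after cyclic loess and 8 in the deposited table.

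Genes of the absorptive brush border were bright as a group. All 18 brush border hydrolases were kept, with a median percentile of 94 and 12 at or above 90. Anpep, an aminopeptidase that trims dietary peptides, had a mean of 8.79 ± 0.16 (n = 3), lactase (Lct) 8.68 ± 0.06 (n = 3), and sucrase-isomaltase (Sis) 8.17 ± 0.09 (n = 3), with ranks of 36, 45 and 96. The range was above 1 in 5 of the 18, against 5.46% of all kept genes. It was largest in Tmprss15, the enteropeptidase that activates trypsinogen, which read -0.52 on replicate 1, 3.82 on replicate 2 and 0.77 on replicate 3, a 20.3-fold span between the lowest and the highest mouse. Enpp7, the alkaline sphingomyelinase, had the next largest range in the list and ran the other way, at 1.87, -0.04 and 0.82.

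Fat absorption genes had a median percentile of 97.3, with 15 of 15 kept and 12 at or above 90. Fabp2 read 9.04, 9.33 and 9.02 and Fabp1, a second carrier of fatty acids, 8.82, 9.04 and 8.74, and Apoc3, an apolipoprotein of chylomicrons, had a mean of 8.16 ± 0.14 (n = 3). None of the 15 had a range above 1. The largest were 0.62 for the fatty acid transport protein Slc27a4 and 0.54 for the apolipoprotein Apoa4. Microvillus and keratin genes were as bright, with a median percentile of 97.5 and 13 of 15 at or above 90. Krt20, a keratin of mature villus cells, had a mean of 8.86 ± 0.13 (n = 3) and the lectin Lgals4 of 8.86 ± 0.12 (n = 3). Krt8, a keratin of simple epithelia, had a mean of 8.52 ± 0.16 (n = 3).

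Nutrient transporters had a median percentile of 92.2 and a wider spread of ranks, from 37.5 to 97.9. Slc7a7, a basolateral amino acid exchanger, had a mean of 6.99 ± 0.08 (n = 3), its partner chain Slc3a2 of 6.08 ± 0.08 (n = 3) and the fructose transporter Slc2a5 of 5.97 ± 0.26 (n = 3). Slc34a2, a phosphate transporter found more in the distal small intestine, read -0.03, -1.73 and -1.16. Slc40a1, the iron exporter of the proximal intestine, read -0.65, 0.42 and -0.28. Replicate 2 was the lowest array for the phosphate transporter and the highest for the iron exporter.

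Goblet cell genes were led by Zg16 (9.10 ± 0.03, n = 3), the membrane mucin Muc13 (8.93 ± 0.18, n = 3) and the trefoil peptide Tff3 (8.42 ± 0.08, n = 3). Of 16 listed, 14 were kept, with a median percentile of 93. Retnlb, a goblet cell peptide induced by infection, was well above background on 2 of 3 arrays and Fer1l6 had no symbol used here. Muc2, the gel-forming mucin, read 5.46, 4.93 and 5.61. The largest ranges were 0.73 for Ccl6 and 0.71 for Agr2, a disulfide isomerase needed for mucin assembly.

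Enteroendocrine genes were all kept, 20 of 20, with a median percentile of 69.3. Secretin (Sct) had a mean of 5.78 ± 0.21 (n = 3), chromogranin B (Chgb) of 5.70 ± 0.05 (n = 3) and cholecystokinin (Cck) of 5.27 ± 0.52 (n = 3). Neurotensin (Nts), a hormone of the more distal bowel, read 3.57, 1.68 and 2.75. Peptide YY (Pyy), also distal, read -0.70, -2.05 and -1.81. Both were lowest on replicate 2. Tuft cell genes lay far lower, with a median percentile of 34 and 12 of 14 kept. Plcg2 (3.34 ± 0.18, n = 3) and Ltc4s (2.77 ± 0.12, n = 3) led that list, and the tuft cell kinase Dclk1 had a mean of -1.71 ± 0.32 (n = 3). Il25, the cytokine of tuft cells, was well above background on 2 of 3 arrays.

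Crypt base stem cell genes were all kept, 18 of 18, with a median percentile of 63.3 and 0 at or above 90. Msi1 had a mean of 4.06 ± 0.27 (n = 3), Smoc2 of 3.77 ± 0.02 (n = 3) and Slc12a2 of 3.76 ± 0.09 (n = 3). The largest ranges in the list were 0.58 for Cd44 and 0.52 for Ephb2, a receptor that positions crypt cells. Cell cycle genes had a median percentile of 73.5, with 19 of 20 kept. Birc5 (4.60 ± 0.20, n = 3), Pcna (4.49 ± 0.02, n = 3) and Mcm6 (4.11 ± 0.12, n = 3) were the brightest, and Aurkb was well above background on 0 arrays. The cell cycle list had a median range of 0.21, against 0.29 for all kept genes, where dim genes vary more. When kept genes were split by mean signal into 10 equal groups, the group holding the list's median had a median range of 0.22. The list was thus about as steady as genes of similar brightness.

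Epithelial antimicrobial genes outside the Paneth list spanned percentiles from 10.8 to 99.7, and their median range of 0.89 was above the 0.29 of all kept genes. Reg3b and Reg3g, lectins that kill or repel bacteria, had means of 8.67 ± 0.11 and 8.43 ± 0.34 (n = 3), and Pigr, which carries IgA into the lumen, of 8.11 ± 0.28 (n = 3). Saa2, an acute phase protein, read -1.05, -5.17 and -4.24, and Duoxa2, the maturation factor of an oxidase that makes hydrogen peroxide, read -0.11, -1.99 and -1.62. In both, replicate 1 was far above the others. Of the 14, 9 were highest on replicate 1, against 35.3% of all kept genes. A range above 1 was found in 6, among them the bright Reg1, against 5.46% of all kept genes.

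The p53 target genes, which radiation is known to induce, were all kept, 20 of 20, with a median percentile of 73.1. Aen, a nuclease of the apoptotic response, had a mean of 4.80 ± 0.13 (n = 3). Cdkn1a, the cell cycle inhibitor p21, read 4.71, 4.74 and 4.59, and Mdm2, the ligase that degrades p53, read 4.54, 4.79 and 4.54. None of the 20 had a range above 1 and their median range was 0.22. Plk2, at 0.26, -0.28 and 0.23, and Polk, at -0.56, -0.91 and -0.43, varied most. The lowest mean was -4.76, for the receptor Eda2r.

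Immune lists ranked lower, and a few bright members stood apart from the rest. Among T cell genes 17 of 18 were kept, with a median percentile of 41.7. The receptor chain Cd3e read 2.05, 2.28 and 1.93, and the kinase Lck 1.41, 1.68 and 1.40. The co-receptor Cd4 ranked highest in the list, at 5.80 ± 0.27 (n = 3), but its second kept probe had a mean of -3.29, so this rank rests on 1 of 2 probes that differ by 9.09. Cd8b1 (-3.13, -3.35 and -3.97) and Cd28 (-1.87, -2.57 and -2.56) had the list's largest ranges. Trac had no symbol used here.

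Cytotoxic and intraepithelial lymphocyte genes had a median percentile of 32.5, with 12 of 16 kept. Granzyme A (Gzma) was bright at 6.28 ± 0.19 (n = 3), the granule protein Nkg7 had a mean of 3.83 ± 0.12 (n = 3), and granzyme B (Gzmb) of 2.39 ± 0.34 (n = 3). Klrk1 and Ncr1, receptors of natural killer cells, were well above background on 0 arrays, Eomes on 1 and Ifng on 2. B cell genes had a median percentile of 42.8. Its brightest members, H2-Eb1 (5.79 ± 0.29, n = 3) and Cd74 (5.37 ± 0.42, n = 3), serve antigen presentation in several cell types, and Blnk had a mean of 4.16 ± 0.27 (n = 3). H2-Aa, another class II chain, read 2.84, 2.91 and 2.02. The B cell antigen Ms4a1 was well above background on 0 arrays, Blk and Faim3 on 1 and Pax5 on 2.

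Plasma cell genes had a median percentile of 52.5, with 10 of 13 kept. The joining chain Igj, which links IgA, had a mean of 6.01 ± 0.16 (n = 3), Xbp1 of 5.87 ± 0.01 (n = 3) and Sdc1 of 2.04 ± 0.02 (n = 3). Xbp1 and Sdc1 are also made by epithelium. The probe named for the kappa constant region gave -4.71, -4.24 and -4.97, near the bottom of the scale. Igha, Ighm and Igk-V1 had no symbol used here.

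Macrophage genes had the highest median percentile of the immune lists, 61.2, with 16 of 17 kept. The protease Ctss had a mean of 5.68 ± 0.14 (n = 3), the integrin Itgam of 4.82 ± 0.31 (n = 3) and the growth factor receptor Csf1r of 3.53 ± 0.22 (n = 3). Fcgr1, a receptor for IgG, had a mean of -2.73 ± 0.67 (n = 3), and Lyz2, the lysozyme of myeloid cells, read 1.73, 0.64 and 0.92. Of the 16 genes, 14 were highest on replicate 1, where 35.3% of all kept genes were highest. The count was 13 or 14 under each of the 5 other scalings or signals. The scavenger receptor Cd163 was well above background on 0 arrays.

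Dendritic cell genes had a median percentile of 27.3. Siglech, a lectin of plasmacytoid dendritic cells, stood at 7.34 ± 0.20 (n = 3), but its other kept probe had a mean of -3.70, the widest gap between probes among all list genes at 11.04. Irf8 had a mean of 4.13 ± 0.10 (n = 3). Bst2, which interferon also induces, read 3.41, 4.24 and 2.80, and Zbtb46 read -2.34, -3.17 and -2.21. Xcr1 was well above background on 0 arrays. Neutrophil genes had a median percentile of 25.2, with 10 of 14 kept. Csf3r read 6.12, 6.48 and 6.78, and the granule proteins Ltf and Elane had means of 1.97 ± 0.44 and 1.11 ± 0.27 (n = 3). S100a8 read -2.90, -4.02 and -4.08, and Mmp9 read -1.67, -2.65 and -2.38. Ngp, Cxcr2 and Mmp8 were well above background on 0 arrays.

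Mast cell and eosinophil genes were the dimmest immune list. Only 8 of 16 were kept, all with a mean below 0, and the median percentile was 21.9. Siglec5 (-0.44 ± 0.24, n = 3), Kit (-0.60 ± 0.18, n = 3) and Tpsb2 (-1.35 ± 0.11, n = 3) were the brightest. Mcpt4 read -3.25, -1.91 and -1.99. The mast cell genes Mcpt2, Cpa3, Tpsab1 and Fcer1a and the eosinophil gene Epx were well above background on 0 arrays, and Mcpt1, Cma1 and Ms4a2 on 1.

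Smooth muscle genes led the stromal lists, with 18 of 18 kept, a median percentile of 82.3 and 7 at or above 90. The light chain Myl9 read 6.74, 6.85 and 7.32, the enteric actin Actg2 6.06, 5.70 and 6.12, and transgelin (Tagln) 5.82, 5.81 and 6.04. The regulator Myocd, at -1.77, -1.85 and -1.20, and Synpo2, at 2.12, 2.43 and 2.73, had the largest ranges. Fibroblast and matrix genes had a median percentile of 70.8, with 19 of 20 kept. Sparc had a mean of 6.18 ± 0.26 (n = 3), decorin (Dcn) of 4.24 ± 0.40 (n = 3) and the collagen chain Col1a2 of 4.02 ± 0.38 (n = 3). Dermatopontin (Dpt) read -2.56, -1.98 and -0.83, and Col1a1 2.74, 2.57 and 3.47. Col6a3 had no symbol used here.

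Vascular lists lay near the middle of the scale or below it. Blood endothelial genes had a median percentile of 42.7, with 18 of 18 kept. The receptor Kdr had a mean of 3.33 ± 0.14 (n = 3), Egfl7 of 2.83 ± 0.29 (n = 3) and Plvap, of fenestrated capillaries, of 2.71 ± 0.21 (n = 3). Sox17 (-3.51 ± 0.34, n = 3) and Vwf (1.63 ± 0.34, n = 3) varied most. Pericyte genes had a median percentile of 47.6. Their top member, Anpep, is the brush border enzyme already described, and Mcam and Des followed at 3.98 ± 0.42 and 2.25 ± 0.15 (n = 3). Of 8 lymphatic genes 4 were kept, led by Pdpn (1.08 ± 0.06, n = 3), Mmrn1 (0.15 ± 0.20, n = 3) and Vegfc (0.13 ± 0.24, n = 3). The defining lymphatic genes Prox1 and Flt4 were well above background on 0 arrays, as was Reln.

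Nerve and surface layers were dim. Enteric neuron genes had a median percentile of 32.4, with 15 of 18 kept. Snap25, a vesicle fusion protein that endocrine cells also make, had a mean of 4.39 ± 0.26 (n = 3). The transmitter genes Tac1 and Gal had means of 1.88 ± 0.13 and 1.04 ± 0.29 (n = 3), and Vip read 0.10, 0.03 and 1.25 and Npy -1.87, -1.87 and -0.70. In Vip and Npy replicate 3 stood above the other 2 by over 1. Nos1 and Chrna3 were well above background on 0 arrays and Calb2 on 2. Enteric glia genes had a median percentile of 26.7, led by Ngfr (-0.64 ± 0.23, n = 3), Sox10 (-1.09 ± 0.05, n = 3) and Erbb3 (-1.42 ± 0.11, n = 3), with Foxd3 and Cdh19 on 0 arrays. Interstitial cells of Cajal, the pacemakers of gut motility, had 7 of 8 genes kept, with Cd34 (1.98 ± 0.19, n = 3), Ano1 (0.58 ± 0.24, n = 3) and Etv1 (0.27 ± 0.21, n = 3) at the top and Hcn4 on 0 arrays. Mesothelial genes had a median percentile of 21.9, and mesothelin (Msln) read 0.92, 0.20 and -0.66.

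The tissue label was set beside genes that mark positions along the gut. Lct and Fabp1, of the proximal small intestine, ranked 45 and 27, and Gata4, a factor of duodenum and jejunum, had a mean of 3.08 ± 0.04 (n = 3). The ileal bile acid carrier Fabp6 read -1.56, -2.03 and -2.38, a percentile of 27. The 9 proximal genes had a median percentile of 80, the 8 ileal genes 63.6 and 8 kept of 11 colonic genes 42.7, with 2 members at or above 90 in each list. Ang4, described above as a Paneth cell gene, is among those 2 of the colonic list. Slc51a, an ileal bile acid exporter subunit, stood at 97.5. Stomach genes had a median percentile of 8.7 with 8 of 13 kept, testis germ cell genes 14.2 with 7 of 15 kept, and lens and retina genes 15.6 with 7 of 15 kept. Hepatocyte genes had a median percentile of 31.4 with 11 of 15 kept and brain neuron genes 32.3 with 9 of 15 kept. These medians were above those of the mast cell, neutrophil, dendritic cell, enteric glia and mesothelial lists. Albumin was well above background on 2 of 3 arrays. Ribosomal protein genes, all 21 at or above a percentile of 90, had a median range of 0.12.

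The spread between the mice was small for most genes. The median SD over the 3 arrays was 0.152 and the median range 0.29. In 893 genes (5.46%) the range was above 1. The spread was larger at low signal. Of the dimmest 10% of genes, 13.8% had a range above 1 and the median SD was 0.26, against 2.02% and 0.128 in the brightest 10%. Of the probes that the design carries in 10 copies each, 309 were well above background on all 3 arrays. Their copies on 1 array had a median SD of 0.0496, 0.0731 and 0.0686 on replicates 1 to 3. For the same probes, with their spots averaged on each array, the median SD between the arrays was 0.129. In 74.4% of the probes the SD between arrays was above that of single spots within an array. An average of 10 spots varies less than 1 spot, so these SDs are not like measures. The percentage is therefore not the share of probes that varied beyond spot error. Replicates 2 and 3 differed by over 1 in 265 genes, replicates 1 and 2 in 538 and replicates 1 and 3 in 545. Without replicate 1 the count of genes with a range above 1 was 264, against 563 without replicate 2 and 567 without replicate 3. These latter counts are for pairs of arrays and so are lower than for 3.

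**Figure D3:**
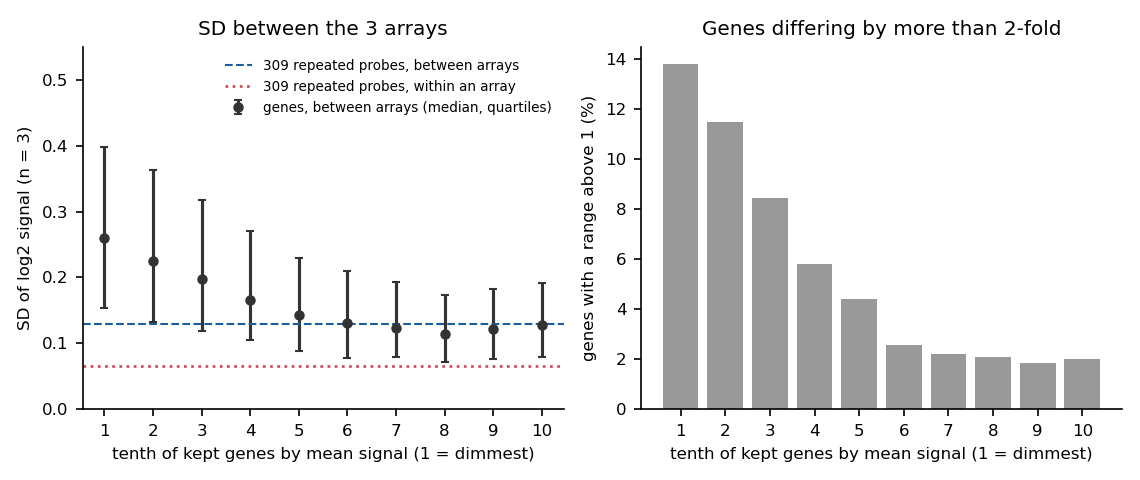
Left, the SD of the log2 signal over the 3 arrays in 10 equal groups of the 16360 kept genes by mean signal (points are medians, bars are quartiles). Lines mark the median SD of 309 repeated probes, between arrays for the mean of a probe's spots and within an array for single spots. Right, the percentage of genes in each group with a range above 1, which goes from 13.8 in the dimmest group to 2.02 in the brightest.

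Members of some lists deviated together between the mice. Of the 106 kept stromal members, 73 were highest on replicate 3, where 29.1% of all kept genes were highest, and 70 were lowest on replicate 2, where 31.1% were lowest. By list, replicate 3 was highest for 15 of 18 smooth muscle genes, 16 of 19 fibroblast and matrix genes, 14 of 18 blood endothelial genes, 11 of 15 enteric neuron genes and 7 of 7 genes of interstitial cells of Cajal. In the other stromal lists replicate 3 was highest for 4 of 10 pericyte, 2 of 4 lymphatic, 3 of 8 enteric glia and 2 of 8 mesothelial genes. Replicate 1 was highest for 6 of 8 mesothelial and 4 of 8 enteric glia genes. The median deviation of replicate 3 from each gene's own mean was 0.19, 0.28, 0.20, 0.41 and 0.22 in the order of the first 5 lists. It was positive under each of the 5 other scalings or signals in those 5 lists. Without replicate 2 it was 0.11 for smooth muscle, 0.14 for fibroblast and matrix and 0.13 for interstitial cell of Cajal genes, as deviations from a mean of 2 arrays. These median shifts were below 2-fold. Single genes could differ more, with a range above 1 in 3 of 15 enteric neuron and 1 of 19 fibroblast and matrix genes. In the smooth muscle, blood endothelial and interstitial cell of Cajal lists it was above 1 in 0, against 5.46% of all kept genes. The part that the share of muscle and deeper wall in each specimen had in these shifts was not tested. On a linear scale, in multiples of the 75th percentile signal, the 18 smooth muscle genes summed to 473, 448 and 583 on replicates 1 to 3. Microvillus and keratin genes were lowest on replicate 3 in 12 of 15, where 38.9% of all kept genes were lowest, but after quantile normalization in 6 of 15.

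Adipocyte genes gave larger differences. Fat cells lie in the mesentery along the gut, and these genes encode their hormones and lipid enzymes. Adipsin (Cfd) read 3.74, -1.37 and 1.24, adiponectin (Adipoq) 0.05, -4.75 and -2.03, resistin (Retn) 1.01, -3.17 and -1.60, and carbonic anhydrase 3 (Car3) 1.50, -2.19 and -0.69. All 4 were highest on replicate 1, between on replicate 3 and lowest on replicate 2, and the span of Cfd was 34.5-fold. The second kept probe of Retn had the same order and a range of 5.32. The other adipocyte genes did not all follow: Cidec read 4.88, 4.98 and 4.29, and 8 of 12 were lowest on replicate 2, against 31.1% of all kept genes. The linear signal of the 12 summed to 69.4, 47.7 and 42.3 times the 75th percentile on replicates 1 to 3. Leptin was well above background on 1 array and Plin1 on 2. Scd1, a fatty acid desaturase, at 1.56, -3.07 and -0.68, and Thrsp, a lipogenic regulator, at 1.04, -2.17 and -0.96, took the same order in a list of fatty acid synthesis genes added after the values were seen. In that list of 10, replicate 1 was highest for 7 and replicate 2 lowest for 6, against 35.3% and 31.1% of all kept genes. With the same shares as background, of 5 kept red cell genes 4 were highest on replicate 1 and lowest on replicate 2, and Hba-a1 read 4.07, 2.35 and 2.91 and Hbb-b1 2.95, 1.29 and 1.87. The median deviation of the red cell genes on replicate 1 was 0.94, and 0.58 without replicate 2. The part that attached fat or blood had in the differences between the mice was not tested.

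**Figure D4:**
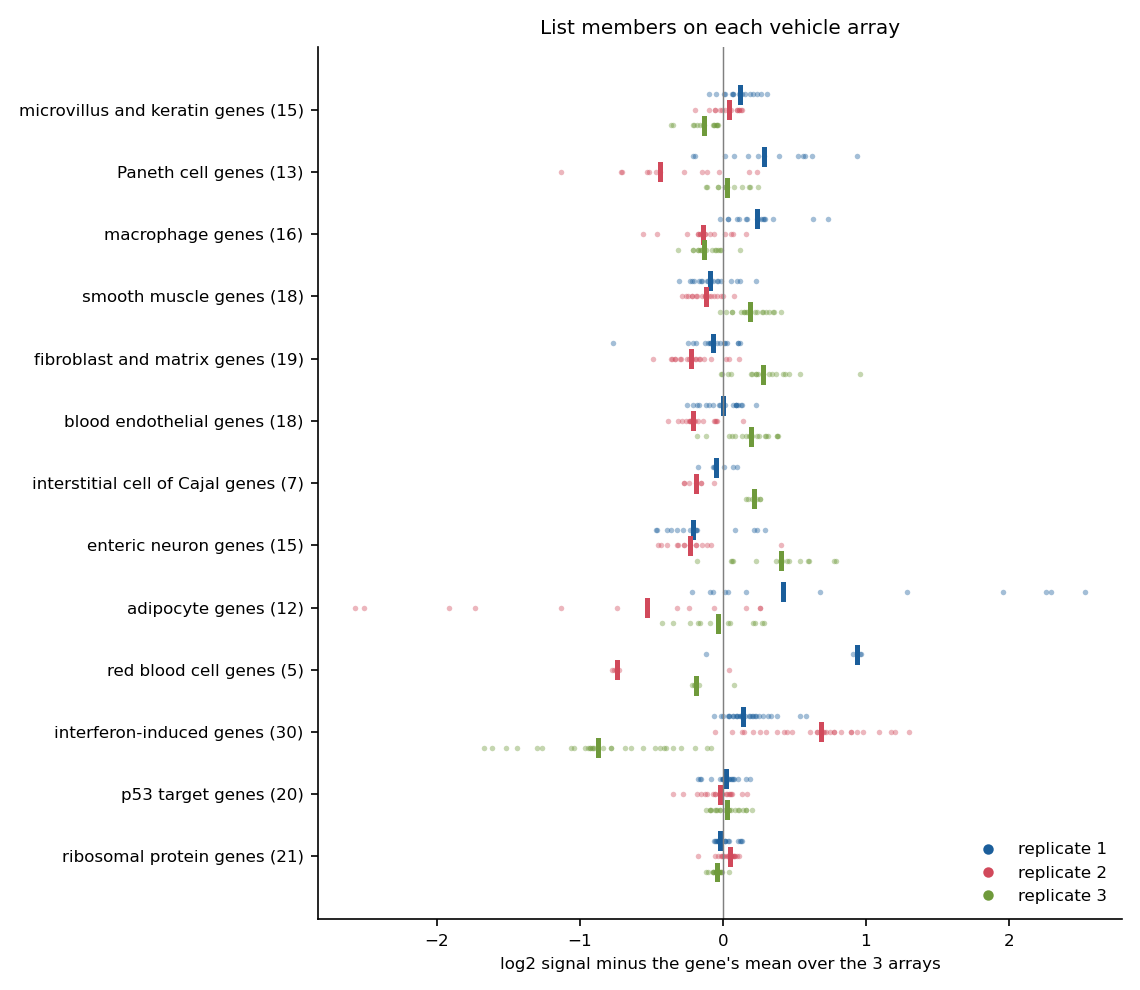
Points are kept members of 13 lists (number in brackets), placed by their deviation on the log2 scale from the mean of the 3 arrays, in a separate row and colour for each array, with a bar at the median. Interferon-induced genes on replicate 3 (median -0.87) and red blood cell genes on replicate 1 (median 0.94) lie farthest from 0 over the 3 arrays, and ribosomal protein and p53 target genes stay near it.

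Genes induced by interferon separated replicate 3 from the other mice. The list was drawn up after Ifi44, Rsad2 and Usp18 had appeared among the most variable genes, so it gives no independent support. All 30 members were kept, 27 were highest on replicate 2, where 35.6% of all kept genes were highest, and 30 were lowest on replicate 3, where 38.9% of all kept genes were lowest. The range was above 1 in 21 of them, against 5.46% of all kept genes. Isg15, a ubiquitin-like modifier, read 6.38, 7.08 and 4.83, and its second kept probe read 2.80, 3.64 and 1.27. Oas1a, a sensor of double-stranded RNA, read 6.25, 6.89 and 5.20. Ifi44 had the widest range of the list at 1.16, 2.15 and -0.77, followed by the antiviral enzyme Rsad2 at 1.04, 1.55 and -1.21 and the protease Usp18 at 2.98, 3.82 and 1.13. The size of the difference varied between members, and Mx1 read -0.29, -0.27 and -0.45. The median deviation of replicate 3 was -0.87, and it was -0.80 without replicate 1 and -0.47 without replicate 2. Replicate 3 was lowest in 29 or 30 of the 30 under each of the 5 other scalings or signals.

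**Figure D5:**
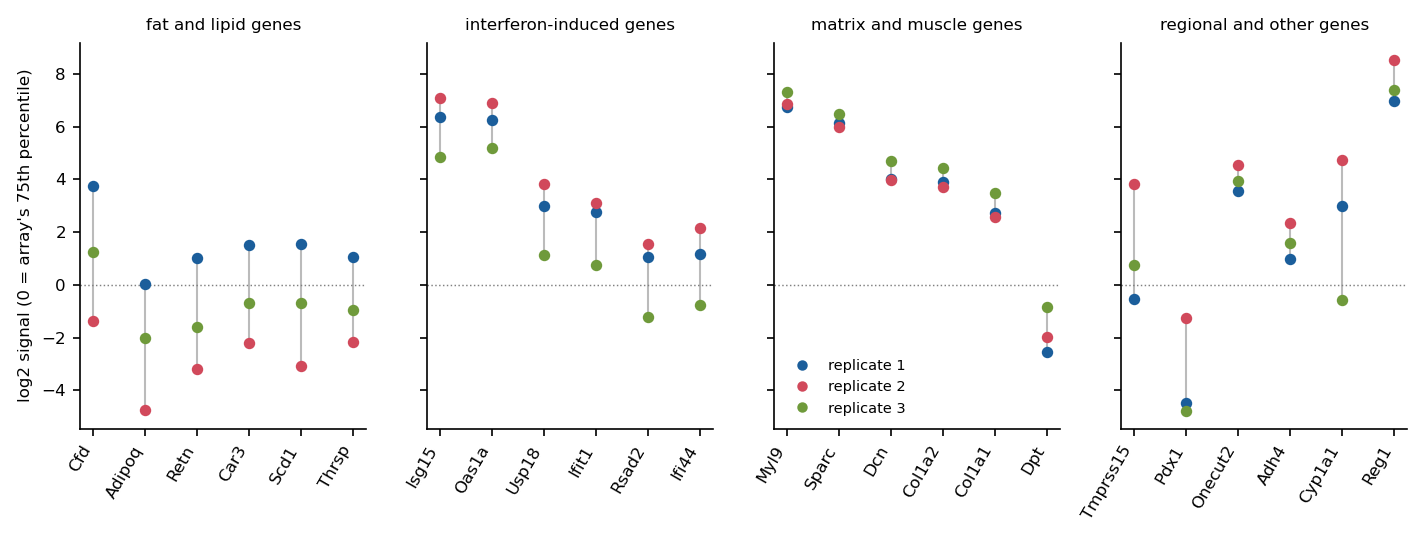
The log2 signal (vertical axis, 0 is the array's 75th percentile) of 24 named genes on each of the 3 arrays, with a grey line over the range. The genes shown were chosen with their values known. Replicate 1 is highest for the 6 fat and lipid genes and replicate 2 for the 6 interferon-induced genes. Replicate 3 is highest for the 6 matrix and muscle genes. In the full lists, 6 of 12 adipocyte and 7 of 10 fatty acid synthesis genes were highest on replicate 1. On replicate 2 it was 27 of 30 interferon-induced genes. On replicate 3 it was 15 of 18 smooth muscle and 16 of 19 fibroblast and matrix genes. Of all kept genes, 35.3%, 35.6% and 29.1% were highest on replicates 1, 2 and 3.

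Several single genes spanned more than these lists. Amy1, an amylase, read 3.49, -0.40 and -4.01, the largest range of all kept genes at 7.50. Otp, a homeobox gene of the brain, read -4.46, -4.88 and 1.14, and Syt10, a vesicle protein, 2.58, 2.30 and -3.25. Ccny, a cyclin, read -5.36, -0.80 and -0.42, and Mapk11, a stress kinase, -2.04, -0.33 and 2.04. Each of these rested on 1 kept probe. Cyp1a1, an enzyme that ligands of the aryl hydrocarbon receptor induce, read 3.00, 4.75 and -0.59, a 40.4-fold span. In a list of targets of that receptor, also added after the values were seen, the other 6 kept members had ranges from 0.32 to 1.18. Ugt1a6a had the largest of these, and Tiparp read 2.03, 1.96 and 1.63.

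Among genes with a mean above 0, Gm6272 read 5.13, 5.01 and 1.50, Tox4, a chromatin protein, 2.41, 2.75 and 0.23, and Gm9706 3.74, 4.64 and 2.14, with replicate 3 lowest in all 3. The second probe of Tox4 read 0.88, 0.65 and 0.52. Tmigd1, a brush border adhesion protein, read 2.81, 0.04 and 1.62, and Gm5316 read 3.49, 0.96 and 2.20, with replicate 2 lowest in both. Regional genes varied too. Pdx1, a factor of pancreas and duodenum, read -4.47, -1.25 and -4.78, Onecut2 3.54, 4.55 and 3.92, and Adh4 0.97, 2.34 and 1.58. With Tmprss15 these were highest on replicate 2. Of 15 kept pancreatic acinar genes 10 were highest on replicate 2, against 35.6% of all kept genes, and 5 on replicate 1. The 10 included the enzyme genes Cpa1 (-4.51, -2.15 and -4.29) and Cpb1 (-3.37, -1.73 and -2.84) and the secreted lectin Reg1 (6.98, 8.52 and 7.38). In the 9 proximal small intestine genes the median deviation of replicate 2 was 0.17, but 0.02 after quantile normalization and in the deposited table.

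Different probes of a gene often disagreed on its level. Of 4307 genes with more than 1 kept probe, 73.1% had a gap above 1 between the brightest and the dimmest, and the median gap was 2.23. Among list genes wide gaps besides that of Siglech included those of Cycs (10.23), Cd4 (9.09), Slc9a3 (8.29) and Cox7c (8.05). In the sodium-proton exchanger Slc9a3 the probes read 4.87, 5.46 and 4.93 against -3.49, -2.54 and -3.57. In the 141 genes with more than 1 kept probe and a range above 1 on the brightest, the next probe was highest on the same array in 63.8%, against 50.8% of all genes with a second kept probe, and had a range above 1 in 47.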

How the data were processed

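Image analysis used Agilent Feature Extraction 10.7.1.1, per the submitters' processing notes. The values used were the deposited intensity of each spot after subtraction of background and detrending within an array, per the file headers, with arrays not scaled to each other. A deposited table of log2 values covers the same arrays (column medians of 6.05, r of 0.999 to 1.000 with the log2 signals, from which its scale was taken); how it was made is not given in the sources used here.

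Control and outlier spots were left out, spots of a probe were averaged, and log2 signals were scaled by subtracting each array's 75th percentile over 59305 non-control spots (873, 689 and 842 on replicates 1 to 3). Of 55681 probes, 29012 carried a symbol in the files and 21595 of these were kept. Of 21545 symbols, 19172 were current in RefSeq for GRCm38.p6, 2194 were older and 179 were found only in the files. With 1 group no test was made. Errors are SDs over 3 arrays, whose number limits the precision.

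The members and lists were chosen with earlier results of these data known. Named genes were the 15 brightest, the 12 with the largest range among kept genes with a mean above 0 and among all kept genes, up to 6 per list (3 brightest, 2 most variable, those not kept) and 6 list genes with the widest probe gaps. A few genes that this rule names are not reported here. Further list members were chosen for naming with their values known. The 3 lists of interferon-induced, aryl hydrocarbon receptor target and fatty acid synthesis genes were added after the values were seen. Alternatives were quantile normalization, median scaling, cyclic loess and normexp (offset 50) in limma 3.58.1 (R 4.3.3), the deposited table, other filters, other probes for a gene, outlier spots kept, names by accession and each array left out. Calculations in Python 3.11.15 were tested on simulated data.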

Additional observations from a re-analysis of the deposited data

How the results depend on the processing

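The order of the 3 compartments, epithelial above stromal above immune in median percentile, held under each alternative run. The epithelial median of 85.5 was 88.2 with no filter on dim probes, 86 with probes well above background on at least 1 array, 87 with the mean of a gene's probes, 86 with its median probe, 86.4 with names by accession and 85.3 to 85.6 with 1 array left out. The immune median of 41.5 was 49.1, 43.4 and 40.1 with no filter, the looser filter and the median probe, and 41.7 to 41.9 with 1 array left out. The stromal median of 47.6 was 57.6, 51, 50.2 and 53.3 with no filter, the looser filter, the mean and the median of probes, and 46.9 to 48.3 with 1 array left out. The median SD of 0.152 was 0.146 after quantile normalization, 0.146 after cyclic loess, 0.131 after normexp, 0.147 in the deposited table, 0.17 and 0.161 under the looser filters and 0.159 with the median probe, and 0.121 to 0.128 with 1 array left out. The 893 genes with a range above 1 became 368 after normexp, 2401 with no filter, 1612 with the looser filter and 264 to 567 with 1 array left out. At a range of 0.5 there were 3832 and at 2 there were 77. The cause of these shifts was not tested, except that looser filters add dim probes and that 2 arrays span a smaller range than 3. For 1 deviation per list, on a single array, 434 values under the alternatives moved by less than a set tolerance and 7 did not. For ranges of named genes these counts were 259 and 21. The tolerance was the list's or gene's own spread between arrays, so it grew with the value checked and the counts cannot show stability. Within it, fat absorption genes on replicate 2 fell from 0.19 to 0.04 after quantile normalization. Microvillus and keratin genes on replicate 3 went from -0.13 to -0.02 after cyclic loess. Deviations near 0 on the other arrays could change sign: under quantile normalization ribosomal protein genes went from 0.05 to -0.06 on replicate 2 and from -0.04 to 0.05 on replicate 3, and microvillus and keratin genes from 0.04 to -0.06 on replicate 2.

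No paired analysis was possible because 1 group enters and no test was made. The 3 arrays limit what the SDs can show, dim probes most of all, and arrays from a single slide cannot show differences between slides. The 300 brightest genes were highest on replicate 2 in 236 cases, but in 100 after quantile normalization and 108 in the deposited table, so the direction of very bright genes depends on the scaling.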

Other observations

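Oxidative phosphorylation genes, the mitochondrial subunits that make ATP, were all kept, 20 of 20, with a median percentile of 97.6 and a median range of 0.21. Atp5b read 8.37, 8.40 and 8.24 on replicates 1, 2 and 3, and Cox4i1 read 8.13, 8.31 and 8.12. Replicate 2 was highest for 18 of the 20, against 35.6% of all kept genes, but for 11 of 20 after quantile normalization and 10 of 20 after cyclic loess. Ribosomal protein genes were as bright, with a median percentile of 98.8, and Rplp0 read 8.52, 8.59 and 8.49.

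Hepatocyte genes had a median percentile of 31.4, with 11 of 15 kept. Cps1, a urea cycle enzyme also made by enterocytes, read 2.02, 1.96 and 1.87. Hp, an acute phase protein, read -0.27, -2.46 and -1.98, and Cyp2e1 read -0.94, -3.59 and -1.95, both highest on replicate 1 and lowest on replicate 2. Among genes listed for other bowel segments, Cubn, the vitamin B12 receptor of the ileum, read 4.76, 3.71 and 5.32, and Aqp8, a water channel, read -1.99, 0.34 and -0.30. The stomach hormone Gast read -4.44, -4.42 and -1.79. In the brain list, Cplx2 read 5.92, 6.96 and 6.69 on the brightest of its 5 kept probes, and Mog read 0.18, -1.14 and -1.59.

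The position of a spot on the array, its brightness and the GC content of its probe each explained at most 2.45% of the variance of a replicate's deviations from the mean of the 3 arrays.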
